A study of Mus musculus with 2 samples.

Results

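The epithelial-mesenchymal transition (EMT) regulators described here are 10 genes, out of 33696 measured features, chosen by name. The mesenchymal side has 6 transcription factors: Twist1, Zeb1, Zeb2, Snai1, Snai2 and Prrx1. The epithelial side has the transcription factors Ovol1, Grhl2 and Ehf and the splicing regulator Esrp1. Each of the 10 symbols matched 1 feature.

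The cells were the mouse pancreatic ductal adenocarcinoma line KPCY 6419c5, sequenced as 1 droplet library with the 3′ v4 chemistry, which counts unique molecular identifiers (UMIs). Clones 76 and 84, 2 of the line's clones, had been edited for 19 days and were pooled 1 to 1 before loading. The editing belongs to BASELINE, a lineage-tracing system built on Cas12a fused to an adenine base editor, and all cells of the pool went through it. A second pool, of 5 clones (1, 32, 33, 52 and 76), was not analysed here.

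Cells were compared as A cells and B cells, by 5 marker genes of A (Pde10a, Plcb1, Galnt18, Arhgap15, Ceacam1) and 6 of B (S100a7a, Rgs20, Hs6st2, Ccbe1, Ctse, Mal). A cell needed at least 2 UMIs of its own set and at least 3 times those of the other set. None of the 10 regulators is among these markers. A and B are expression groups, and which clone either corresponds to is not known here. Each clone descends from 1 line, so the groups are not independent models of the tumour, and no unedited control was analysed.

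Of 22178 barcodes with 116505698 UMIs, 21361 passed a minimum of 2000 UMIs and 1000 genes and a maximum of 15% mitochondrial UMIs. A cells numbered 7816 (36.6%), B cells 8936 (41.8%) and cells in neither group 4609 (21.6%). The median depth was 4699.5 UMIs in A, 5440.5 in B and 4325 in neither, and the median mitochondrial share was 3.19%, 1.89% and 2.77%. Scrublet, a doublet caller, marked 146 A cells, 208 B cells and 424 of neither. All 9 ductal or epithelial markers had UMIs in both groups, and their summed level was 2771 CPM (UMIs scaled to a total of 1000000) in A and 7892 CPM in B. Fibroblast markers summed to 146 CPM in A and 6.82 CPM in B, of which Acta2 made up 144 and 5.89 CPM, while Col1a2, Dcn and Lum were at 0 in both. The sums were 3.45 and 0.947 CPM for immune markers, 38.6 and 8.79 CPM for endothelial markers (led by Egfl7, with Kdr at 0), 13.7 and 4.38 CPM for acinar markers (with Ptf1a, Cpa1 and Prss1 at 0), 0.795 and 3.49 CPM for erythroid markers and 0.0745 and 0.0758 CPM for endocrine markers. Whether cells of another type have a part in any difference below was not tested.

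As background, EMT is the programme by which epithelial cells lose junctions and polarity and gain motility. The Snail, Zeb and Twist families repress junction genes such as Cdh1, and Prrx1 can induce a mesenchymal state separately from them. Grhl2 and the Ovol factors repress Zeb1, Esrp1 keeps epithelial splice forms, and Ehf is an epithelial Ets-family factor. In pancreatic carcinoma models these factors are studied for their part in plasticity and spread.

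The best known link within the set is a loop in which Zeb1 and Zeb2 repress the miR-200 family and those miRNAs repress Zeb1 and Zeb2 in turn. The mature sequences, from RefSeq (GRCm38.p6), are shown because the family splits into 2 seeds. Capitals mark the seed, bases 2 to 8.
mmu-miR-200b-3p: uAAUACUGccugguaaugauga
mmu-miR-200c-3p: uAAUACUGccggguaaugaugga
mmu-miR-429-3p: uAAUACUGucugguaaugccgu
mmu-miR-200a-3p: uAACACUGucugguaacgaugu
mmu-miR-141-3p: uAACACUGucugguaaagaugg
The first 3 share a seed whose match in a transcript reads CAGTATT, and the last 2 share one whose match reads CAGTGTT. These miRNAs were not measured in the library.

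The 3′ untranslated region (UTR) of each regulator was searched on the transcript strand for both 7-base matches, in the longest one annotated in GENCODE M21 (GRCm38). Zeb1 held 9 matches in 2401 bases (5 of CAGTATT and 4 of CAGTGTT) and Zeb2 held 9 in 4941 bases (also 5 and 4). Snai2 held 2, Snai1 and Grhl2 held 1 each, and Twist1, Prrx1, Ovol1, Esrp1 and Ehf held 0. Of 20921 genes with a 3′ UTR, 25.9% had any match. Among genes with a 3′ UTR of similar length, the share with at least 9 matches was 0% for both Zeb1 (2866 genes) and Zeb2 (1092 genes). The windows below hold 2 of the Zeb2 matches of each kind and both Snai2 matches, in capitals, with 22 bases each.
Zeb2, UTR bases 393 to 399: accatacatCAGTATTttatta
Zeb2, UTR bases 458 to 464: acagtgcatCAGTATTacgatt
Zeb2, UTR bases 209 to 215: aattttgtaCAGTGTTaaggcc
Zeb2, UTR bases 741 to 747: atccttgtaCAGTGTTcagagg
Snai2, UTR bases 427 to 433: ccaaaggaaCAGTATTtcttct
Snai2, UTR bases 11 to 17: tggcgcaacCAGTGTTtactca
A match is a description of letters, not evidence of a site in use.

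The regulators did not follow a single axis between A and B. Twist1, Zeb2 and Snai2, on the mesenchymal side, were higher in A, and so was the epithelial factor Ehf. Prrx1, also on the mesenchymal side, was higher in B. Zeb1 was detected widely in both groups. Ovol1, Esrp1 and Snai1 had between 0 and 5 UMIs in either group. Bulk levels of this kind sum all cells of a group, so fewer expressing cells and less RNA per cell cannot be told apart from the sum alone. Intervals below are exact Poisson for levels and exact Clopper-Pearson for shares, at 95%, and cover counting error only. With 1 library there is no replicate of either group, and no test between A and B was made.

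Twist1, a basic helix-loop-helix factor on chromosome 12, had 1080 UMIs in A and 45 in B. These gave 26.8 CPM (25.2 to 28.5) and 0.853 CPM (0.622 to 1.14), a ratio of 31.4 (23.3 to 43.4). A Twist1 UMI was seen in 971 A cells (12.4%) and 42 B cells (0.470%), or in 7.4% and 0.159% after each cell was thinned to 3000 UMIs. The B level was 3.18% of the A level. The ratio depended on which cells were kept: it was 50.9 without the marked doublets, which left 27 UMIs in B, and 57.9 under a stricter marker rule, which left 14. On the log2 scale it was 4.97, with 4.74 under the strict cell filter and 5.61 after thinning to 3000 UMIs. For scale, among 6404 features with at least 20 CPM in A, the lowest B level was 1.15% of the A level and the 20th lowest was 2.87%. Twist1 in B thus lay close above the lowest values that any feature reached there, and the part of RNA from other droplets in those 45 UMIs was not tested.

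Zeb1, a zinc-finger homeobox repressor on chromosome 18, was the most evenly shared of the regulators past 5 CPM. Its 5014 UMIs in A gave 124.5 CPM (121 to 128), and its 4060 UMIs in B gave 76.9 CPM (74.6 to 79.3). The ratio was 1.62 (1.55 to 1.69), under the 2-fold threshold used here. A Zeb1 UMI was found in 44.6% of A cells and 35.1% of B cells, and after thinning in 31.5% and 19.9%. Up to 7 UMIs were counted in 1 A cell and up to 6 in 1 B cell, with 301 A cells and 126 B cells at 3 or more.

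Zeb2, the paralog of Zeb1 on chromosome 2, was higher in A by more than Zeb1 was. It had 1109 UMIs or 27.5 CPM (25.9 to 29.2) in A and 457 UMIs or 8.66 CPM (7.88 to 9.49) in B, a ratio of 3.18 (2.85 to 3.55). The intervals of the Zeb1 and Zeb2 ratios do not overlap. A Zeb2 UMI was seen in 12.7% of A cells and 4.79% of B cells, and after thinning in 7.56% and 2.47%.

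Of the Snail family, Snai2 (Slug, chromosome 16) was measured well and Snai1 (Snail, chromosome 2) was almost absent. Snai2 had 938 UMIs or 23.3 CPM (21.8 to 24.8) in A and 426 UMIs or 8.07 CPM (7.32 to 8.88) in B, a ratio of 2.89 (2.57 to 3.24). It was seen in 10.7% of A cells and 4.49% of B cells, and after thinning in 6.18% and 2.28%. Snai1 had 3 UMIs in A and 5 in B, or 0.0745 CPM (0.0154 to 0.218) and 0.0947 CPM (0.0308 to 0.221). No difference in Snai1 was detectable at this depth.

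Prrx1, a paired-related homeobox factor on chromosome 1, went the other way. It had 24 UMIs or 0.596 CPM (0.382 to 0.887) in A and 332 UMIs or 6.29 CPM (5.63 to 7.01) in B, so that B was 10.6 times A (6.97 to 16.7). All 24 UMIs in A lay in different cells, 0.307% of A cells, against 324 B cells (3.63%). After thinning the shares were 0.135% and 1.90%. The A level was 9.47% of the B level. Among 5961 features with at least 20 CPM in B, the 20th lowest A level was 3.21% of the B level. Prrx1, at 6.29 CPM in B, is not among those features.

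On the epithelial side only Ehf, on chromosome 2, reached 5 CPM. It had 1890 UMIs or 46.9 CPM (44.8 to 49.1) in A and 71 UMIs or 1.35 CPM (1.05 to 1.7) in B, a ratio of 34.9 (27.5 to 44.9). An Ehf UMI was seen in 1421 A cells (18.2%) and 68 B cells (0.761%), and after thinning in 11.8% and 0.397%. The B level, at 2.87% of the A level, was the 20th lowest of the 6404 features above.

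Grhl2, a grainyhead-like factor on chromosome 15, was low in both groups. Its 34 UMIs in A gave 0.844 CPM (0.585 to 1.18) and its 6 UMIs in B gave 0.114 CPM (0.0417 to 0.247), a ratio of 7.43 (3.08 to 21.6). The 34 UMIs in A lay in 34 cells, and the 6 in B in 4 cells. Esrp1 (chromosome 4) had 2 UMIs in A and 3 in B. Ovol1 (chromosome 19) had 0 UMIs in both, which allows up to 0.0745 CPM in A and 0.0568 CPM in B, taking 3 counts as the limit. Of the 4 epithelial regulators, 3 were therefore under 1 CPM in both groups, beside ductal or epithelial markers that summed to 2771 and 7892 CPM.

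**Figure D1:**
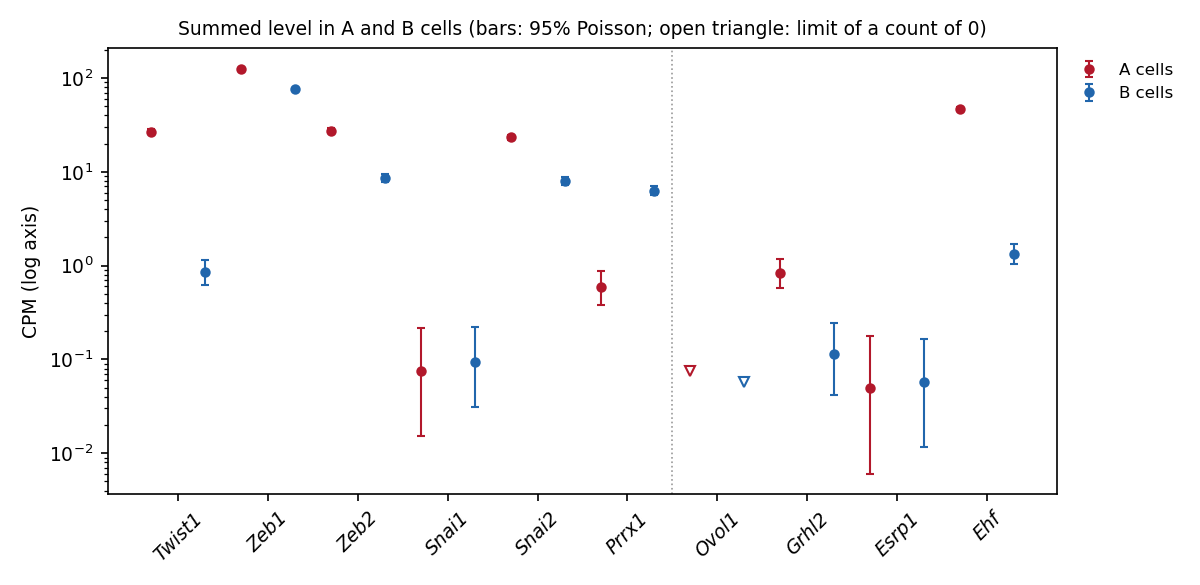
Level of each regulator in A cells (red) and B cells (blue), in CPM of summed UMIs on a log axis, with exact Poisson 95% intervals; mesenchymal-side factors stand left of the dotted line and epithelial-side regulators right of it. Twist1 (26.8 and 0.853 CPM) and Ehf (46.9 and 1.35 CPM) are far higher in A and Prrx1 (0.596 and 6.29 CPM) is higher in B, and open triangles mark the limit for Ovol1, which had 0 UMIs.

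Against the background of all features, 6 of the 10 regulators had at least 5 CPM in A or B. Of these 6, 4 (Twist1, Zeb2, Snai2 and Ehf) were at least 2-fold higher in A, where 11.6% of 10160 features were. Prrx1, 1 of the 6, was at least 2-fold higher in B, where 7.97% were, and 19.6% of features passed in either direction. Twist1, Ehf and Prrx1 met the minimum only through the group in which they were higher, so a difference was built into their count. The median log2 ratio of A over B was 0.18 over all 10160 features, against 0.69 for Zeb1, 1.53 for Snai2, 1.67 for Zeb2, 4.97 for Twist1, 5.12 for Ehf and -3.40 for Prrx1.

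The start regions of Twist1 and Prrx1 are shown since, of the mesenchymal-side factors past 5 CPM, these had the widest ratios of A and B in opposite directions. Each is the 250 bases before the annotated start, on the gene's strand, from RefSeq (GRCm38.p6). They were searched on both strands for the E-box CACCTG, the motif class that Snail, Zeb and Twist proteins bind, and for the TATA box TATAAA. Capitals mark a match.
Twist1, chr12:33957421-33957670, plus strand: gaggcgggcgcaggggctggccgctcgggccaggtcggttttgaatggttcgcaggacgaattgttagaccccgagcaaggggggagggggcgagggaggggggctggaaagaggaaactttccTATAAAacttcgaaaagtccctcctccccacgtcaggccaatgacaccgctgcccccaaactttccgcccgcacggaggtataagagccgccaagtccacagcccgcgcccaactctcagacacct
Prrx1, chr1:163313651-163313900, minus strand: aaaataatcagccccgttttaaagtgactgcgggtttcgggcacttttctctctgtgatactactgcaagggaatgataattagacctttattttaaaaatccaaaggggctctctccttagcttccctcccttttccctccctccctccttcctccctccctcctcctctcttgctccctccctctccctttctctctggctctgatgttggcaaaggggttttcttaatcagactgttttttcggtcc
The Twist1 window held 1 TATAAA, at position -126 from the annotated start, and no CACCTG, and the Prrx1 window held neither. Use of that match as a TATA box was not tested. Among 32851 RefSeq start windows of this length, 17.2% held CACCTG and 12.4% held TATAAA, on either strand. The GC content was 62.4% in the Twist1 window and 47.6% in the Prrx1 window. The Snai1 window held 1 CACCTG and the 4 Zeb2 windows held neither motif. These 4 genes were the regulators matched in the RefSeq table.

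Related factors were counted from fixed lists. Of 26 other EMT-linked transcription factors, 19 reached 5 CPM, and 5 were at least 2-fold higher in A and 3 in B, with a median log2 ratio of 0.36 against 0.18 over all features. Twist2, the paralog of Twist1, was also higher in A, at 31.7 CPM (30.0 to 33.5) against 1.67 CPM (1.34 to 2.05). Snai3, the third Snail paralog, was higher in B, at 0.223 CPM (0.102 to 0.424) in A against 6.39 CPM (5.72 to 7.11). The Ets factor Etv5 had 14.5 and 4.15 CPM in A and B, and Sox9, a ductal progenitor factor, 1.91 and 5.68 CPM.

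Of 24 other epithelial transcription factors and splicing regulators, 15 reached 5 CPM, of which 2 were 2-fold higher in A and 3 in B, with a median log2 ratio of 0.01. Klf4, a Krüppel-like factor of differentiated epithelia, had 20.3 CPM in A and 80.95 CPM in B. Grhl1, a paralog of Grhl2, had 1.56 and 5.44 CPM, and the pioneer factor Foxa1 had 1.94 and 5.08 CPM. Cdx2, an intestinal homeobox factor, had 110.1 CPM in A and 39.1 CPM in B. Esrp2, named here as the paralog of Esrp1, had 7.77 CPM (6.93 to 8.68) in A and 12.1 CPM (11.2 to 13.0) in B, so it was measured where Esrp1 was not.

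Of 26 targets on the epithelial side, 15 reached 5 CPM, of which 3 were 2-fold higher in A and 8 in B, with a median log2 ratio of -1.44. The 4 with the widest ratios were all higher in B. They were Mal2, an apical transport protein (1.79 and 62.4 CPM in A and B), and the desmosome and envelope genes Dsp (4.57 and 135.7 CPM), Pkp3 (0.348 and 7.41 CPM) and Ppl (3.38 and 57.6 CPM). Of 26 targets on the mesenchymal side, 10 reached 5 CPM, of which 1 was 2-fold higher in A and 3 in B, with a median of -0.55. Fn1, fibronectin, had 167 CPM in A and 17.9 CPM in B. N-cadherin Cdh2 (27.2 and 199 CPM) and the receptor Axl (22.1 and 71.3 CPM) were higher in B. Of the 3 epithelial-side targets higher in A, named after their values were seen, the tight-junction gene Cldn3 had 7.05 and 0.663 CPM, Epcam 31.8 and 3.16 CPM and Tjp3 6.48 and 1.46 CPM. Over all features, 11.6% were 2-fold higher in A and 7.97% in B. Mal2, Dsp, Pkp3, Ppl, Cldn3, Epcam and Tjp3, like others in these lists, met the minimum only through the group in which they were higher, so a difference was built into these counts too. The target lists were drawn up with earlier results of these data known, so these directions are a description.

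**Figure D2:**
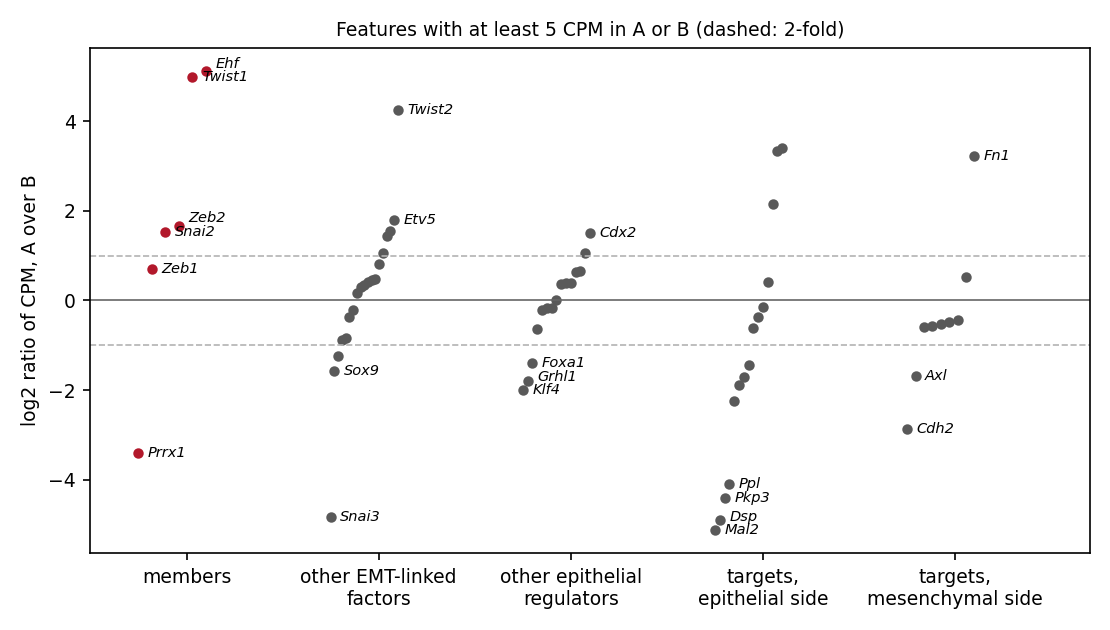
The log2 ratio of CPM, A over B, for the 6 regulators and for listed features with at least 5 CPM in A or B; each point is 1 gene, the dashed lines mark 2-fold, and the regulators and the widest genes plotted for each list are named, with 1 mesenchymal-side target not drawn. The regulators run from -3.40 (Prrx1) to 5.12 (Ehf), and the epithelial-side targets reach -5.13 (Mal2).

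Within A, the regulators also differed between subsets of cells. Subsets were set by genes that lead different cells of A in earlier results of these data: S100g, Epcam and Tm4sf20 against Tnc, Acta2 and Ptchd4. With at least 2 UMIs of 1 set and at least 3 times the other, 1142 A cells fell in the S100g subset and 2478 in the Tnc subset. Their median depth was 4507 and 5155.5 UMIs. Of 10009 features past 5 CPM, 5.33% differed at least 2-fold between these subsets, 4.2% higher in the S100g subset and 1.13% in the Tnc subset. Of the 5 regulators past 5 CPM, 1 passed in each direction.

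Ehf passed in the S100g subset, at 121 CPM (112 to 131) against 24.1 CPM (21.6 to 26.8), or 5.02 times (4.4 to 5.74). On the log2 scale this is 2.33, and it was 3.01 with the stricter subset rule. An Ehf UMI was seen in 39.7% of the cells of the S100g subset and 11.9% of those of the Tnc subset, and after thinning in 27.7% and 6.68%. Zeb2 passed in the Tnc subset, at 34.1 CPM (31.1 to 37.3) against 16.4 CPM (13.3 to 20.2), or 2.07 times (1.66 to 2.62). Under the strict cell filter its log2 ratio fell short of 2-fold, at -0.95. Snai2 lay just inside the threshold, at 28.9 CPM (26.2 to 31.9) in the Tnc subset and 14.5 CPM (11.5 to 18.0) in the S100g subset, or 1.997 times (1.57 to 2.57). Its log2 ratio crossed the threshold with the setting: over 7 alternatives it ran from -0.79 after thinning and -0.96 with per-cell means to -1.51 with the stricter subset rule, and 5 were past 2-fold.

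Zeb1 did not share this pattern, at 127 CPM (118 to 137) in the S100g subset and 129.7 CPM (124 to 136) in the Tnc subset. Twist1 had 21.6 CPM (17.9 to 25.8) and 29.0 CPM (26.3 to 32.0). Grhl2 had 10 UMIs in the S100g subset and 7 in the Tnc subset, or 1.79 CPM (0.857 to 3.29) and 0.498 CPM (0.200 to 1.03), a ratio of 3.59 (1.23 to 11.1). Epcam defines the S100g subset and Acta2 the Tnc subset, so neither is a result here.

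Within B, Krt14 and Sprr1a set 541 cells apart from 4714 cells set by Areg, Btc and Cftr. Of 9729 features, 3% differed at least 2-fold between these subsets, 2.57% higher in the Krt14 subset and 0.432% in the Areg subset. Of 4 regulators past 5 CPM, 1 did, Prrx1, with 11 UMIs or 3.19 CPM (1.59 to 5.70) in the Krt14 subset and 202 UMIs or 7.11 CPM (6.16 to 8.16) in the Areg subset, 2.23 times (1.22 to 4.54). It met the minimum only through the Areg subset, so a difference was built in. It fell under 2-fold with a strict cell filter, a stricter marker rule or a stricter subset rule. Zeb1 had 86.1 CPM (76.6 to 96.4) and 74.6 CPM (71.5 to 77.9), Zeb2 had 6.09 (3.77 to 9.30) and 7.96 CPM (6.95 to 9.06), and Snai2 had 10.4 (7.31 to 14.4) and 8.91 CPM (7.84 to 10.1).

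Over the 4 subsets, the order of Ehf was the S100g subset, the Tnc subset, then the Krt14 (2.03 CPM, 0.816 to 4.18) and Areg (1.09 CPM, 0.741 to 1.55) subsets, whose intervals overlap. The order of Zeb2 was Tnc, S100g, then Areg and Krt14, which overlap. Snai2 ran from the Tnc subset down to the S100g subset, whose interval overlaps that of the Krt14 subset, which in turn overlaps that of the Areg subset. Prrx1 ran from the Areg subset to the Krt14 subset, then to the Tnc (0.570 CPM, 0.246 to 1.12) and S100g (0.179 CPM, 0.00452 to 0.996) subsets, which overlap.

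**Figure D3:**
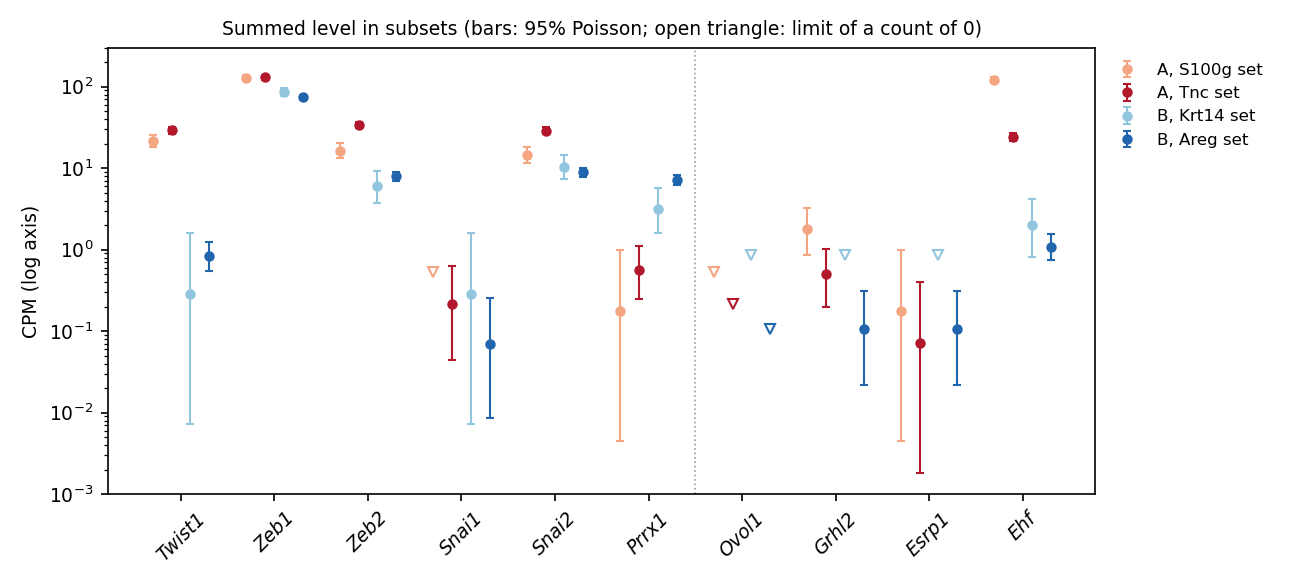
Level of each regulator in the S100g and Tnc subsets of A cells and the Krt14 and Areg subsets of B cells, in CPM on a log axis with exact Poisson 95% intervals; open triangles mark the limit of a count of 0. Ehf is highest in the S100g subset (121 CPM), Zeb2 and Snai2 are highest in the Tnc subset (34.1 and 28.9 CPM), and Zeb1 lies between 74.6 and 129.7 CPM in the 4 subsets.

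Co-expression was read as the number of cells with a UMI of both genes over the number expected from their separate shares, within A or within B and in cells thinned to 3000 UMIs. The observed number was averaged over all ways of thinning. In A, 10 pairs had at least 10 expected cells, and 1 of them lay past 1.5-fold, below the expected number. Of 13799631 pairs of features with 20 to 150 CPM in A, 0.00814% lay past 1.5-fold below and 0.0100% above, and the central 95% of their ratios ran from 0.879 to 1.14. Snai2, at 23.3 CPM, lies near the lower end of that range of levels.

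The pair past 1.5-fold was Snai2 and Ehf, with 38.2 cells against 57.5 expected, a ratio of 0.665 (0.471 to 0.911). In whole cells, with the expected number computed within 5 bins of depth, 109 cells had both against 155.1 expected, a ratio of 0.703 (0.577 to 0.848), which is short of 1.5-fold. After thinning, 4.27% of A cells with an Ehf UMI had a Snai2 UMI, against 6.72% of those without. Zeb2 and Ehf leaned the same way, with a ratio of 0.788 (0.591 to 1.03), and in whole cells 143 had both against 180.1 expected, 0.794 (0.669 to 0.935).

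The other 8 pairs in A had ratios from 0.92 to 1.16, with intervals that include 1. The mesenchymal-side factors showed no excess of shared cells with each other: Twist1 and Zeb2 had a ratio of 1.16 (0.860 to 1.54), Twist1 and Snai2 1.10 (0.786 to 1.51), and Zeb2 and Snai2 1.01 (0.712 to 1.4). Zeb1 and Ehf shared 281.2 cells against 275.3 expected, a ratio of 1.02 (0.906 to 1.15). In B, 3 pairs could be read, and 0 lay past 1.5-fold. Of 11720061 background pairs of features with 20 to 150 CPM in B, 0.00215% lay above and 0.000597% below. Zeb2, Snai2 and Prrx1, at 8.66, 8.07 and 6.29 CPM in B, lie under that range, so none of the pairs read in B belongs to this background. Zeb1 had ratios of 1.08 (0.798 to 1.42) with Zeb2, 1.09 (0.788 to 1.46) with Snai2 and 1.03 (0.719 to 1.44) with Prrx1.

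**Figure D4:**
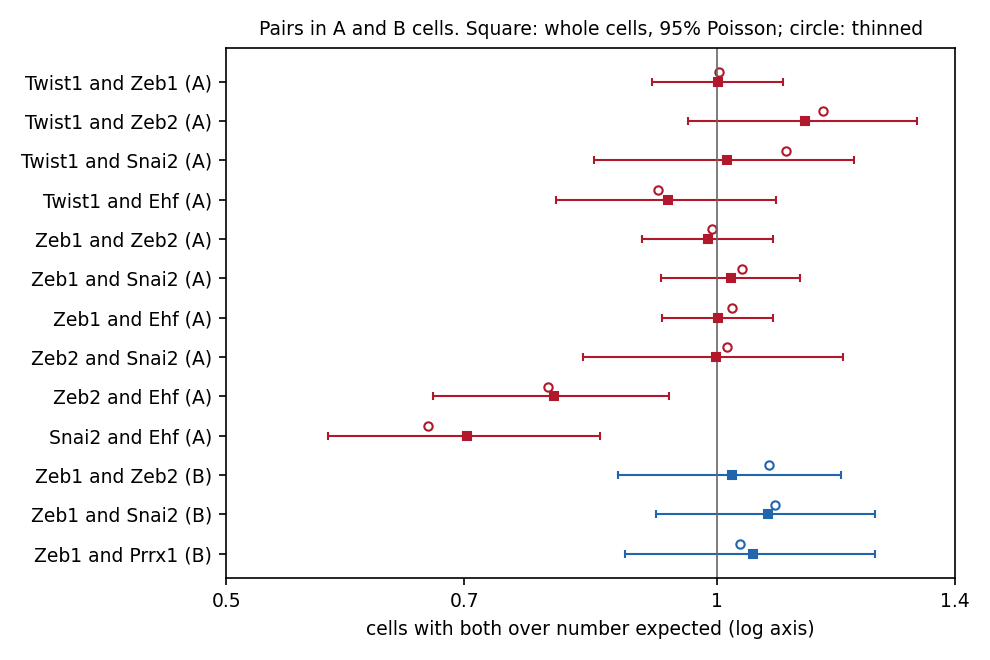
Ratio of cells with both genes to the number expected, on a log axis, for the 10 pairs in A (red) and 3 pairs in B (blue); squares give whole cells with expectation within depth bins and exact Poisson 95% intervals, circles the value after thinning to 3000 UMIs. Squares for Snai2 and Ehf (0.703) and Zeb2 and Ehf (0.794) lie below 1 with their intervals, and the other intervals include 1.

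Since Ehf, Zeb2 and Snai2 differed between the subsets of A, the same ratios were taken inside each. For Snai2 and Ehf they were 0.835 (0.403 to 1.53) in the S100g subset, 0.846 (0.431 to 1.49) in the Tnc subset and 0.635 (0.367 to 1.02) in the A cells outside both. For Zeb2 and Ehf they were 0.837 (0.424 to 1.48), 1.01 (0.579 to 1.62) and 0.837 (0.545 to 1.23). All 6 intervals include 1. With 12.1 to 30.7 expected cells, the intervals for Snai2 and Ehf also include 0.665, the ratio over all A cells. These ratios therefore cannot tell a lower number within subsets from none.

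Twist1, Zeb1, Zeb2, Snai2 and Prrx1 were counted per cell after thinning, without Snai1. Of A cells, 55.3% had a UMI of none of them, 37.1% of 1, 6.97% of 2 and 0.581% of 3 or more. In B these shares were 74.9%, 23.6%, 1.46% and 0.0680%. Among the 874 A cells with an Ehf UMI, 57.9% (54.5 to 61.2) had none of these mesenchymal-side factors, against 55.0% (53.8 to 56.2) of the 6532 without. These are shares of cells with a UMI, not of cells that express the genes.

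The genes most like each regulator were sought by Pearson's r across the 7406 thinned A cells, or 8827 thinned B cells, which share 1 library and its depth. For Twist1, Zeb1, Zeb2 and Snai2 in A and Zeb1 in B, all r were under 0.1. Ehf in A was most like S100g (r = 0.22), a calcium-binding protein, Fabp5 (r = 0.19), a fatty-acid-binding protein, and Gm5886 (r = 0.19). S100g marks a subset in which Ehf was high.

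Targets and related factors with at least 20 CPM on either side were compared between A cells with and without a UMI of a regulator, after thinning. A gene near 20 CPM can meet that minimum only through the side where it is higher, so a difference is built into such a count. This holds for Cdh2 and Axl by Ehf, Epcam by Zeb2 in A, Fn1 by Zeb2 and Snai2 in B, and Cdh3 by Zeb2 in B. With 874 cells against 6532, cells with an Ehf UMI had more Epcam, an epithelial adhesion gene and 1 of 6 epithelial-side targets counted, at 69.8 CPM (60.0 to 80.7) against 25.7 CPM (23.5 to 28.0). Elf3, an Ets factor like Ehf and 1 of 9 other epithelial regulators counted, had 37.4 CPM (30.3 to 45.5) against 24.5 CPM (22.4 to 26.8), and 0 others of these lists passed 1.5-fold. Of 14 other EMT-linked factors, 1 passed, the forkhead factor Foxq1, with 135.4 CPM (122 to 150) against 68.3 CPM (64.7 to 72.0), while the median log2 ratio of that list was -0.12. Cdh1, E-cadherin, had 37.8 CPM (30.7 to 46.0) against 31.0 CPM (28.6 to 33.6), with overlapping intervals. On the mesenchymal side Fn1 had 107.9 CPM (95.7 to 121) against 167.9 CPM (162 to 174), and Cdh2 had 17.9 CPM (13.2 to 23.8) against 28.5 CPM (26.2 to 30.9). Of the 7 mesenchymal-side targets past 20 CPM, 3 (Axl, Cdh2 and Fn1) were at least 1.5-fold higher without an Ehf UMI and 0 with one. Over 6687 features, 0.808% were higher without and 2.95% with.

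For the mesenchymal-side factors, Epcam went the other way. It had 20.1 CPM (13.8 to 28.2) in the 548 A cells with a Twist1 UMI against 31.7 CPM (29.4 to 34.3) in those without. With and without a Zeb2 UMI it had 19.0 CPM (13.0 to 26.9) and 31.8 CPM (29.4 to 34.4), and for Snai2 20.4 CPM (13.5 to 29.5) and 31.6 CPM (29.2 to 34.1). The intervals for Snai2 meet narrowly, and those for Twist1 and Zeb2 do not. Of the 6 epithelial-side and 7 mesenchymal-side targets counted, Epcam alone differed at least 1.5-fold by Twist1, Zeb2 or Snai2 in A, where 0.6%, 0.543% and 0.751% of all features were higher without the UMI and 0.375%, 0.392% and 0.796% with it. For Zeb1, Epcam had 28.5 CPM (24.7 to 32.8) and 32.0 CPM (29.2 to 34.9), and 0% of 6525 features differed 1.5-fold in either direction.

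In B, Epcam was too low to be counted, and whether the differences by UMI differ between A and B was not tested. With a Zeb2 UMI (218 cells against 8609), the Hippo-pathway factor Tead4 and Fn1 were at least 1.5-fold higher and Cdh3, P-cadherin, was lower, out of 15 other EMT-linked factors, 9 other epithelial regulators, 10 epithelial-side and 9 mesenchymal-side targets past 20 CPM. Of 6319 features, 4.05% were higher and 2.41% lower, so these counts lie near the background. Fn1 had 41.3 CPM (27.2 to 60.1) in the B cells with a Zeb2 UMI and 15.9 CPM (14.4 to 17.5) in those without. With a Snai2 UMI (201 cells against 8626), Fn1 was at least 1.5-fold higher, 1 of 8 mesenchymal-side targets, and 0 of 10 epithelial-side targets were. Of 6277 features, 3.38% were higher and 3.52% lower. Fn1 had 29.9 CPM (17.7 to 47.2) with and 16.2 CPM (14.7 to 17.9) without, and these intervals meet narrowly. In A, Fn1 also was higher with a Zeb2 UMI, at 202 CPM (181 to 225) against 157 CPM (152 to 163), and with a Snai2 UMI, at 197 CPM (174 to 221) against 159 CPM (153 to 164), under 1.5-fold in both. By a Zeb1 UMI in B, 0% of 6118 features differed in either direction. In B the share of features past 1.5-fold was larger where fewer cells had the UMI.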

How the data were processed

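Gene expression was measured in 1 droplet library of pooled KPCY clones. The deposited values are raw counts of UMIs per feature and barcode, per the file headers, with no normalization, and the other deposited files hold the feature names and barcodes. Cell Ranger 8.0.1 and the build GRCm39 are named per the submitters' processing notes, and the filter behind the barcode list is not given in the sources used here. Cells could not be traced to their clone here, so cells are not replicates and no test was made. Intervals of ratios of levels are exact and conditional on the sum of both counts. Those of co-detection ratios are Poisson intervals on the observed number, with the expected number taken as fixed. After thinning the observed number is an average, so these intervals are not exact there. All intervals and limits (3 counts) cover counting error only.

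From the counts, CPM was taken on summed UMIs of each group, with a minimum of 5 CPM in either group and a threshold of 2-fold. Shares of cells with a UMI are of whole cells unless given as thinned. Thinned shares, co-detection, counts of regulators per cell, likeness and cells with against without a UMI used cells thinned to 3000 UMIs, which left out 410 A and 109 B cells. Co-detection used pairs with at least 10 expected cells and averaged the observed number over all thinning draws, in place of the planned single draw, since single draws varied. Doublets were marked with Scrublet in scanpy 1.11.5 (expected rate 0.08) and kept, except in an alternative. Genes were named by rule: all 10 regulators, the 4 widest ratios of each list, and the 3 most like genes where r was at least 0.1. Of the genes with the widest ratios, 1 is not reported here. Elf3, Foxq1, Epcam, Cdh1, Cdh2, Cdh3, Tead4, Fn1 and Axl in the comparisons of cells with and without a UMI, and Esrp2, were picked after their values were seen, as were genes named in the closing section. The regulators, subset markers and lists were chosen with earlier results of these data known.

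Python 3.11.15 with numpy 2.4.6, scipy 1.17.1, pandas 2.3.3 and matplotlib 3.10.9 was used. Tested on simulated data for A over B with 33696 features and 200 changed 4-fold, 100% of the features simulated higher and 100% of those simulated lower passed, and 0% of 9556 unchanged ones did. The simulated counts were Poisson draws, with changes planted only in features above the 5 CPM minimum. They held no differences between cell states or cultures, so the 0% does not cover these. Alternatives were a strict cell filter (5000 UMIs, 2000 genes, 5% mitochondrial), marked doublets left out, stricter marker (5 UMIs and 10 times) and subset (4 UMIs and 6 times) rules, other depths, CPM minimums of 1 and 50, centring, per-cell means, a threshold of 1.5-fold and depth bins. Sequences came from RefSeq and GENCODE M21 on GRCm38, a different build from that of the counts, and were matched by symbol.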

Additional observations from a re-analysis of the deposited data

Results flagged for a closer look

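The 4609 cells in neither group were outside the comparison of A and B, and 7 of the 10 regulators had a signal there above the limit of a count of 0 (0.133 CPM). Twist1 had 17.0 CPM (15.3 to 18.8), Zeb1 93.8 CPM (89.8 to 97.9), Zeb2 22.2 CPM (20.3 to 24.2) and Snai2 17.1 CPM (15.4 to 18.9). Prrx1 had 2.53 CPM (1.92 to 3.28), Ehf 24.1 CPM (22.1 to 26.2) and Grhl2 0.533 CPM (0.275 to 0.931). Each of these 7 levels lies between those of A and B. Of these cells, 3966 had under 2 UMIs of either marker set and 643 had markers of both, and 424 were marked as doublets. What share of them are A or B cells with few marker UMIs was not tested.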

How the results depend on the processing

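Of 83 counts under alternatives, 67 stayed within 1.5 times and 16 moved. No called ratio changed sign, and 3 uncalled co-detection ratios crossed 1, all for Zeb2 and Snai2 in A. At a minimum of 50 CPM, 0 regulators passed 2-fold between A and B in place of 5 (0 higher in A, 0 in B), 1 in place of 2 between the A subsets, 0 in place of 1 between the B subsets, and 15 other listed genes in place of 28 (6 higher in A, 9 in B). Few regulators reach 50 CPM. At 1 CPM, 19 listed genes were higher in A in place of 11. The B-subset count was 0 under the strict cell filter, the stricter marker rule and the stricter subset rule. The count of pairs past 1.5-fold in A was 0 in place of 1 under the stricter marker rule (Snai2 and Ehf 0.741), thinning to 5000 UMIs (0.693), depth bins (0.676) and depth bins without thinning (0.703), the last chosen after seeing the data. Of 221 single values, 41 moved past their counting interval, among them 11 of 36 for the regulators in A over B. On the log2 scale, moves over 1.5 times were those of Twist1 given above, of Mal2 from -5.13 to -6.50 (stricter marker rule), -5.91 (without marked doublets) and -4.52 (strict filter), of Dsp from -4.89 to -5.49 (without marked doublets) and of Pkp3 from -4.41 to -5.33 (thinning), -5.04 (per-cell means) and -3.69 (strict filter). Between subsets they were those of Ehf from 2.33 to 3.01 (stricter subset rule) and of Prrx1 from -1.16 to -0.54 (stricter marker rule). Centring removed a shift of 0.18. The cause of these moves was not tested. No paired analysis was possible because there was 1 library. Depth limits Snai1, Ovol1, Esrp1 and Grhl2, which had 0 to 34 UMIs in either group, and no alternative measures the spread between cultures.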

Other observations

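Regulator levels were also read against the cell cycle, a choice made after the values were seen. The top 10% of A cells by late-mitosis genes (781 cells) had 35.6 CPM of Snai2 and the other 7035 had 21.8 CPM, a log2 ratio of 0.71 (0.45 to 0.96). It was 0.42 after thinning to 3000 UMIs, which also leaves out shallower cells, and 0.49 under the strict cell filter; the cause was not tested. Ehf had 60.7 and 45.2 CPM there, a log2 ratio of 0.42 (0.23 to 0.61), whereas Zeb1 (127.8 and 124.1 CPM) and Zeb2 (27.6 and 27.5 CPM) had intervals of the log2 ratio that include 0. Twist1 had 32.2 and 26.2 CPM, a log2 ratio of 0.30 (0.03 to 0.56). By replication genes Ehf in A was lower in the top 10%, at 38.9 against 47.7 CPM, a log2 ratio of -0.29 (-0.56 to -0.04). In B, Snai2 had 10.7 CPM in the top 10% (893 cells) and 7.74 CPM in the rest, a log2 ratio of 0.47 (0.06 to 0.86). Zeb2 in B was higher in the top 10% by replication genes, at 13.8 against 8.17 CPM, a log2 ratio of 0.75 (0.35 to 1.14), and lower in the top 10% by late mitosis, at 6.02 against 9.0 CPM, a log2 ratio of -0.58 (-1.11 to -0.09). Zeb1 in B by replication genes had 88.2 and 75.8 CPM, a log2 ratio of 0.22 (0.07 to 0.37). Zeb2 in A by replication genes had 27.97 and 27.5 CPM.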
